A study of Mus musculus with 6 samples.

Results

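The cells described here are droplets of the mouse glioma line GL261 that held few transcripts of which an unusually large share came from ribosomal protein genes. They were chosen as barcodes of the 2 GL261 libraries with 2500 to 8000 unique molecular identifiers (UMIs, each standing for 1 captured transcript), at least 500 genes, under 3% of UMIs from mitochondrially encoded (mt-) genes, and at least 18% of UMIs from genes whose symbols begin with Rps or Rpl followed by a digit. This gave 306 cells in library 1 and 177 in library 2, 483 of the 9107 GL261 barcodes with at least 2500 UMIs that met the same limits on genes and mt- share. The UMI window and the ribosomal share were themselves measured values, so the low transcript number and the level of the Rps and Rpl genes describe how the cells were picked and are no finding. They are called ribosome-rich small cells below; "small" refers to UMIs, since the diameter of no cell was measured.

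The study compared GL261 with GL261-GSCs, glioma stem cells derived from the line, by droplet single-cell RNA sequencing with a 5′ kit. GL261 was grown in a differentiation medium with foetal calf serum (FCS) and its cells are labelled Glioblastoma cell (2 libraries), whereas GL261-GSCs grew in a defined medium for glioma stem cells and carry the label Glioblastoma stem cell (4 libraries). No other treatment, genotype or time is given for any library, and GL261 is an established line of cultured cells although the tissue label reads Brain. All libraries shared dissociation with Accutase and a lysis buffer with 0.3% of the detergent IGEPAL CA-630, and the labels state for no library if its droplets took up cells or nuclei. Nothing in the labels says that libraries of a group came from separate cultures, so the p-values below measure only the spread between these libraries, which may be technical. The libraries held between 80899005 and 121309232 UMIs in all.

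Ribosomal proteins build the small (Rps) and large (Rpl) ribosomal subunits, and their mRNAs are among the most abundant in growing cells. Many of them, together with mRNAs of elongation factors and of some small nucleolar RNA host genes, begin with a C followed by an unbroken run of pyrimidines, the terminal oligopyrimidine (TOP) tract. Through this tract their translation is known to follow the growth-control kinase complex mTORC1 and the RNA-binding protein Larp1. The tract was looked for as a C at the annotated RefSeq start followed directly by at least 4 further C or T, on the transcribed strand only. The lines below show start regions of genes picked because their annotated start holds the tract or, for the last pair, lacks it, 20 bases before and 20 after the annotated start in build GRCm38.p6, 5′ to 3′ on the transcribed strand, with the tract in capitals. The first 4 are genes that the choice of cells did not use, followed by a pair of small nucleolar RNA hosts, a pair of rule genes and, for contrast, a pair of genes lower in the ribosome-rich small cells, whose windows hold no such tract.
Fau, chr19:6057927-6057966, plus strand: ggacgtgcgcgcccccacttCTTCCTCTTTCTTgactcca
Rack1, chr11:48800340-48800379, plus strand: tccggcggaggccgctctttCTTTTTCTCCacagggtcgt
Rplp2, chr7:141447631-141447670, plus strand: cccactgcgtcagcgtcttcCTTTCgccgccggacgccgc
Eif3f, chr7:108934395-108934434, plus strand: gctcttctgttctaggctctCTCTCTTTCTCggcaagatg
Gas5, chr1:161035146-161035185, plus strand: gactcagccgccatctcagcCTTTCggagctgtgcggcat
Snhg8, chr3:123508317-123508356, minus strand: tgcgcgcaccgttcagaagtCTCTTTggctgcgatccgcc
Rps27, chr3:90213629-90213668, minus strand: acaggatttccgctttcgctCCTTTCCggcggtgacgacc
Rpl35, chr2:39005112-39005151, minus strand: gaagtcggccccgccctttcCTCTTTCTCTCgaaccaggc
Cspg4, chr9:56865084-56865123, plus strand: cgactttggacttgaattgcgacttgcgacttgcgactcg
F3, chr3:121723517-121723556, plus strand: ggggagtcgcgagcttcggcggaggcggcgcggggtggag

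Of 27025 genes with a start in the RefSeq table, 813 (3.01%) held the tract at that start. It was found for 12 of the 55 Rps and Rpl genes with a start in the table (21.8%), of the 74 that had at least 100 UMIs in the ribosome-rich small cells. A start placed even 1 base away from the true one hides the tract, so these shares describe the annotated starts, and a window without it says nothing about the transcript. Eef1a1, Eef2, Tpt1, Rplp0 and the other annotated start of Gas5 held no such tract.

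The 18% limit cut through a continuous range of ribosomal shares. Library 1 held 31 small cells between 17% and 18% and 26 between 18% and 19%, and library 2 held 46 and 33. The cells just inside the limit detected 1935.5 and 1897 genes (medians of libraries 1 and 2) and those just outside 2155 and 2275. Ribosome-rich small cells were 45.4% of the small cells of library 1 (95% exact binomial interval 41.6 to 49.2%) and 30.2% of those of library 2 (26.5 to 34.1%), intervals that cover counting error only. They were compared with the deep cells of the same library, which had over 8000 UMIs and the same limits on genes and mt- share (3788 and 4059 cells), and with the other small cells, which had the same UMI window and a ribosomal share under 18% (368 and 409 cells). No barcode of a ribosome-rich small cell in one GL261 library was a ribosome-rich small cell in the other, and 5 were among the other library's cells of any class.

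The median ribosome-rich small cell had 4987 UMIs in library 1 and 4452 in library 2, against 16986.5 and 14685 in deep cells and 4398 and 6024 in the other small cells. Its ribosomal share had a median of 25.99% in library 1, with cells from 18.004 to 44.1%, and of 21.3% in library 2, with cells from 18.1 to 38.0%. Deep cells had medians of 14.7% and 14.5%, although 8.53% and 4.61% of them also reached 18%. Counted in UMIs per cell and not as a share, ribosomal transcripts were fewer in the ribosome-rich small cells, with medians of 1324 and 1038 against 2496 and 2120 in deep cells. Against deep cells, the name therefore holds for the make-up of the transcripts and not for their number. The other small cells had fewer ribosomal UMIs per cell than the ribosome-rich ones, with medians of 476 and 778. Both differences follow in part from the choice of cells. Free RNA, read from barcodes with 100 to under 1000 UMIs, had a ribosomal share of 15.9% and 17.5%. This was below the limit and above the medians of deep cells in both libraries. Those barcodes had medians of 499 and 483 UMIs, and the part of free RNA in the ribosome-rich small cells was not tested.

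After each cell was thinned at random to 2000 UMIs, the ribosome-rich small cells detected 921 and 964 genes (medians), against 1225 and 1223 in deep cells and 1283.5 and 1213 in the other small cells. The 2000 UMIs include those of the rule genes, so the lower number follows in part from the choice of cells and is a description. The median mt- share was 1.55% and 1.24%, above the 0.945% and 0.913% of deep cells, within an upper limit of 3% that the choice of cells had set.

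**Figure D1:**
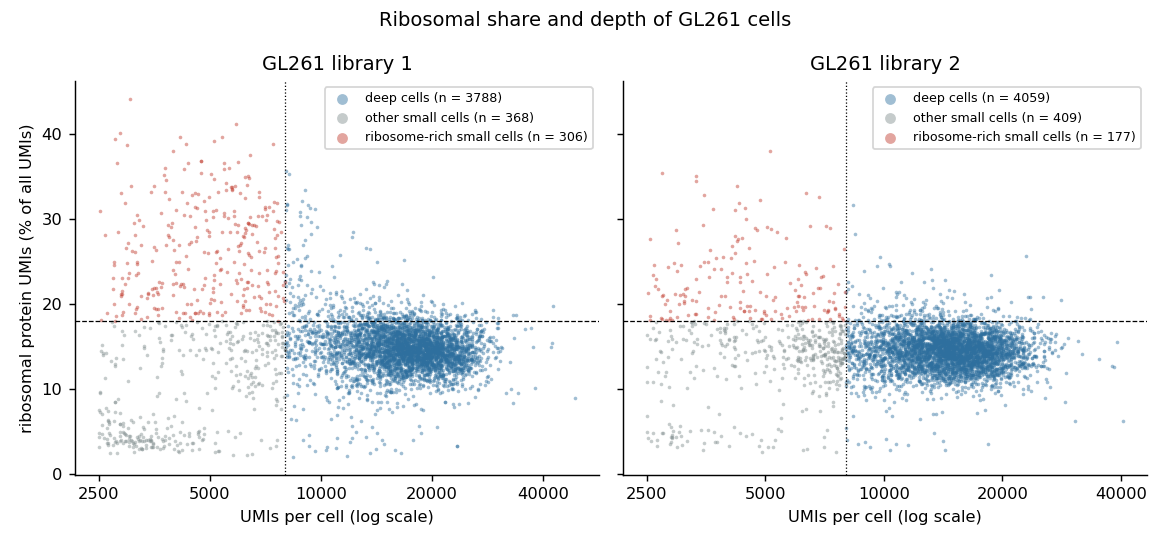
Ribosomal protein share of UMIs (percent, vertical axis) against UMIs per cell (horizontal log axis) for each GL261 cell, 1 panel per library, coloured by class; the dashed line is the 18% limit and the dotted line 8000 UMIs. The 306 and 177 ribosome-rich small cells fill the upper left, and 8.53% and 4.61% of the deep cells also lie above the dashed line.

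Ribosomal genes made up 26.3% and 22.8% of the thinned UMIs of the ribosome-rich small cells, 14.8% and 14.5% of those of deep cells and 9.97% and 12.97% of those of the other small cells. All 74 ribosomal genes with at least 100 UMIs were higher than in deep cells in both libraries, by log2 differences of share from 0.12 to 1.24 in library 1 (median 0.81) and from 0.28 to 0.97 in library 2 (median 0.64). Rpl41, the smallest protein of the large subunit, was the highest in library 1, at 1.31% and 1.02% of UMIs against 0.798% and 0.680% in deep cells. Rps2, of the small subunit, was the highest in library 2, at 1.25% and 1.15% against 0.716% and 0.760%. Rps12 took 0.893% and 0.713% of UMIs against 0.389% and 0.365%, Rps20 0.863% and 0.648% against 0.365% and 0.385%, and Rps27a, which encodes a fusion of ubiquitin with a ribosomal protein, 0.778% and 0.803% against 0.452% and 0.485%. The rule also takes in 11 genes that are not ribosomal proteins, Rps19bp1 and the Rps6k kinases, and these together had 0.0229% and 0.0223% of UMIs against 0.0314% and 0.0299% in deep cells. Of the ribosomal protein-like genes that it matches, Rpl22l1 stood at log2 -0.06 and -0.48 and Rpl7l1 at -0.11 and 0.23.

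The other genes were compared over the sums of thinned cells of each library, with the rule genes left out of the test and of the library size and with edgeR's quasi-likelihood test (Benjamini-Hochberg adjusted p under 0.05, library as a block). Levels below are CPM, TMM-scaled counts relative to all UMIs of genes outside the rule, and n is 2 libraries with 1 residual degree of freedom. Against deep cells, 1679 of 10975 genes passed (15.3%): 1048 stood higher (9.55%) and 631 stood lower (5.75%). The scale matters for these numbers. With plain library-size scaling the median log2 difference of all genes moved from -0.13 to -0.52 and the split to 474 higher (4.32%) and 2398 lower (21.8%), so list medians and counts below are read against the values of the same scaling. The 474 higher genes were all among the 1048. Genes and ribosomal share were read from the same UMIs. With the share taken from a random 50% of each cell's UMIs and the genes from the rest, 1737 of 13081 genes were called. Of the 1048 higher and 631 lower genes, 832 and 413 were called in the same direction there. The cells were not thinned in that setting, so depth was not made equal.

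Ribosomal protein genes whose symbols the rule does not match rose with those it does. All 7 of them, with the stalk proteins Rplp0, Rplp1 and Rplp2 and the ribosome-bound scaffold Rack1 among them, were called higher, with a median log2 of 1.36 (0.98 with library-size scaling). They share the biology of the rule genes, so they were no independent test of the choice. Rplp1 had 10085.5 CPM in library 1 and 6917 in library 2 in ribosome-rich small cells, and 2651 and 2554 in deep cells. Both values lay above both deep values, as for 25.6% of all tested genes (36.3% lay below both), for a log2 of 1.69 ± 0.15 (SE, adjusted p 5.4e-10). Rplp0, at 19941 and 13360 against 6737 and 6416 CPM, rose by 1.31 ± 0.16 (adjusted p 9.4e-08), and Rack1, at 5571 and 4818 against 1846 and 1865 CPM, by 1.48 ± 0.14 (adjusted p 1.3e-09). In free RNA these 7 genes summed to 232 and 258 UMIs per 10000 UMIs outside the rule, against 511 and 401 in the ribosome-rich small cells and 222 and 217 in deep cells.

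Elongation and initiation factors and other genes of the classical TOP group rose together. All 17 were called higher (median log2 1.11, from 0.47 to 1.68); with library-size scaling 13 were called higher and none lower (median 0.72). Eef1a1, which brings aminoacyl-tRNA to the ribosome, had 22980 and 17134 CPM in the ribosome-rich small cells and 6176 and 6184 in deep cells, a log2 of 1.68 ± 0.16 (adjusted p 1.3e-09). Eef2, which moves the ribosome along the message, had 8730 and 6332 against 3423 and 3382 CPM (log2 1.13 ± 0.15, adjusted p 4e-07). Tpt1, the translationally controlled tumour protein, had 7300 and 6431 against 2368 and 2522 CPM (log2 1.49 ± 0.14, adjusted p 1.7e-09). Eif3f, a subunit of an initiation factor, had 1477 and 1132 against 608 and 601 CPM (log2 1.11 ± 0.14, adjusted p 1.8e-07). At the annotated starts the tract was found for 3 of the 5 ribosomal genes outside the rule with a start in the table, for 2 of 12 factors, for 34 of 828 genes called higher (4.11%) and for 10 of 478 called lower (2.09%), beside 250 of 8473 tested genes (2.95%).

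Small nucleolar RNA host genes, whose introns carry the guide RNAs that modify ribosomal RNA and whose spliced transcripts often start with a TOP tract, rose in part. Of 8, 5 were called higher under both scalings (median log2 1.13) and none lower. Snhg8 had 328 and 170 CPM against 80.5 and 63.6 in deep cells (log2 1.79 ± 0.18, adjusted p 5.1e-09), and Gas5 had 1136 and 597 against 360 and 301 (log2 1.36 ± 0.15, adjusted p 2e-08). Snhg1, Snhg6 and Zfas1 rose too, by 1.38, 0.91 and 1.5 on the log2 scale. Snhg12 (log2 0.65), Snhg3 (0.18) and Snhg5 (-0.04) did not pass the test. Library 1 was above library 2 in Gas5, Snhg8 and Zfas1 within the ribosome-rich small cells, and for Zfas1 library 2 had 62.2 CPM against 41.2 in deep cells.

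Of 32 genes for RNA polymerase I and ribosome assembly, the machinery that builds ribosomes, 4 were called higher and 2 lower, beside 9.55% and 5.75% of all genes, with a median log2 of -0.03, and with library-size scaling 1 was higher and 8 lower. Npm1, a nucleolar chaperone, was among those higher, with 3408 and 3201 CPM against 1965 and 2005 (log2 0.74 ± 0.13, adjusted p 0.00011). Of 15 growth regulators around mTORC1, the cap-binding complex and Myc, 1 was called higher and none lower (median 0.19), and with library-size scaling none was higher and 5 were lower (median -0.20). Myc itself, at 175 and 74.6 against 175 and 149 CPM, did not pass (log2 -0.33, adjusted p 0.29). Mitochondrial ribosomal protein genes, which serve a separate ribosome, had 13 of 78 called higher and 2 lower (median 0.17). With library-size scaling the counts were 5 and 15, the latter near the share of all genes called lower on that scale (21.8%).

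Of 31 nuclear-encoded subunits of the respiratory chain and ATP synthase, 25 were called higher and none lower (median log2 0.78), and 17 with library-size scaling (median 0.40). Cox6c, a subunit of cytochrome c oxidase, had 1515 and 1223 CPM against 531 and 503 in deep cells (log2 1.40 ± 0.13, adjusted p 1.7e-09). Atp5e, a small subunit of ATP synthase, had 2571 and 1941 against 889.5 and 821 CPM (log2 1.39 ± 0.14, adjusted p 2.2e-09). Of 30 proteasome subunits 13 were called higher and none lower (median 0.44), a number that fell to 3 with library-size scaling. Of 12 hypoxia-induced and glycolytic genes 5 were higher and 1 lower (median 0.58), and with library-size scaling 3 and 2. Mif, a small secreted cytokine, had 3993 and 3794 CPM against 1545 and 1733 (log2 1.25 ± 0.14, adjusted p 2.1e-08).

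**Figure D2:**
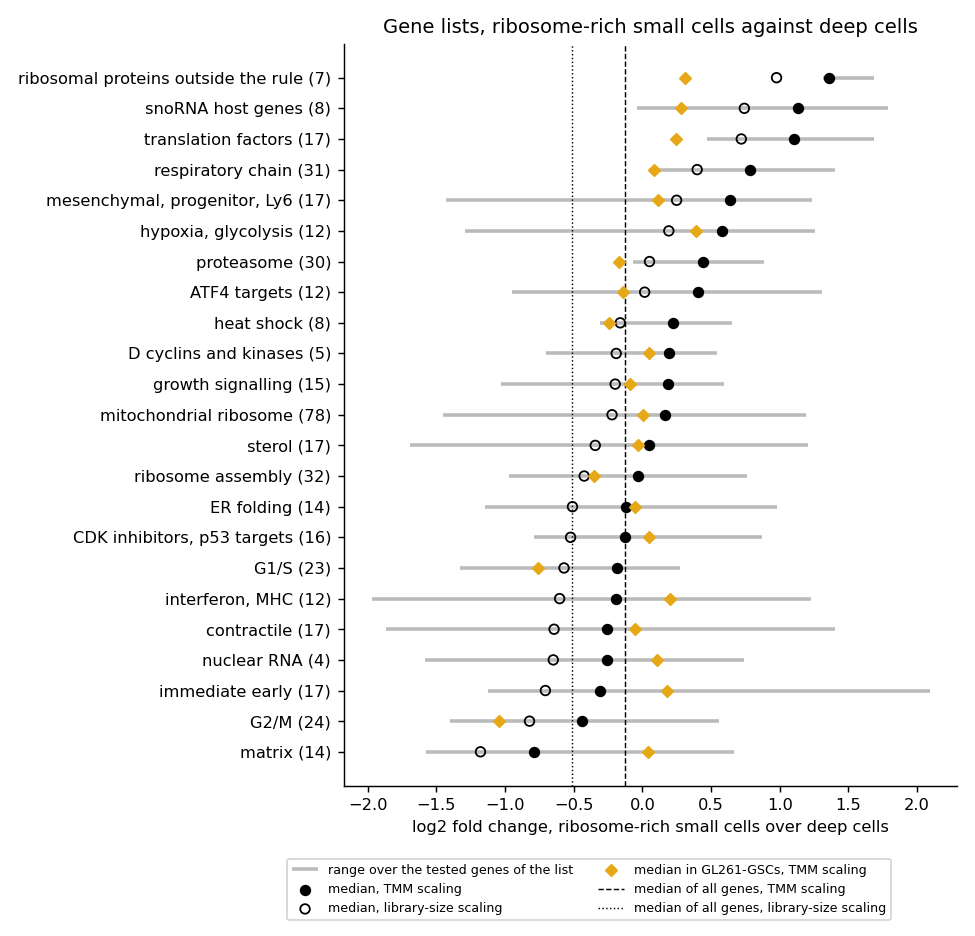
Log2 fold change of ribosome-rich small cells over deep cells for each gene list, with the number of tested genes in brackets: grey bars span the list's genes, filled and open circles are GL261 medians with TMM and library-size scaling, diamonds are medians in GL261-GSCs, and the vertical lines are the medians of all genes, -0.13 and -0.52. Ribosomal genes outside the rule (median 1.36) lie at the top and matrix genes (-0.79) at the bottom.

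Of 24 genes of G2 and mitosis 10 were called lower and none higher (median log2 -0.44), beside 5.75% of all genes called lower. Of 23 genes of DNA replication 2 were lower and none higher, and their median of -0.18 stood near the -0.13 of all genes. With library-size scaling 18 and 8 were lower. Mki67, the proliferation antigen, had 117 and 149 CPM against 274 and 341 in deep cells (log2 -1.21 ± 0.18, adjusted p 5e-06). Top2a, the mitotic topoisomerase, had 175 and 282 against 396 and 445 CPM (log2 -0.92 ± 0.17, adjusted p 9.3e-05). Per cell, 20.6% of the ribosome-rich small cells in library 1 (63 of 306) and 37.3% in library 2 (66 of 177) had at least 5 UMIs of the G2 and mitosis genes among 2000, against 55.8% and 64.1% of deep cells and 61.4% and 59.4% of the other small cells. The 2000 UMIs include those of the rule genes, so these lower shares follow in part from the choice of cells. Free RNA held 8.57 and 9.17 UMIs of these genes per 2000, against means of 2.98 and 5.16 in the ribosome-rich small cells. Deep cells had means of 7.60 and 8.92, so both classes lay below free RNA in both libraries, and no cell cycle phase is read from these UMIs. The D cyclins and their kinases, which act before that point, had 2 of 5 called higher, namely Cdk4 (log2 0.54 ± 0.13, adjusted p 0.0034) and Ccnd3 (0.54 ± 0.17, adjusted p 0.03). With library-size scaling neither of these was called. Cyclin D1, Ccnd1, had 1247 and 1269 CPM against 1058 and 1144 and did not pass (adjusted p 0.36). Among 16 inhibitors of cyclin-dependent kinases and p53 targets 1 was called, Cdkn2a, which encodes p16 and p19Arf (log2 0.87 ± 0.14, adjusted p 9.7e-06), while Cdkn1a, the p21 gene, had 167 and 87.1 CPM against 120 and 102 (adjusted p 0.51).

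Among the largest falls, F3, the coagulation receptor tissue factor, had 117 and 137 CPM against 481 and 498 in deep cells (log2 -1.97 ± 0.18, adjusted p 1.1e-09). Cspg4, the NG2 proteoglycan, had 31.8 and 49.8 against 153 and 186 CPM (log2 -2.09 ± 0.25, adjusted p 1.4e-07), and Ahnak2, a giant scaffold protein, 26.5 and 45.6 against 148 and 144 CPM (log2 -2.10 ± 0.27, adjusted p 4.9e-07). Plec, which links intermediate filaments, fell from 1183 and 1266 CPM to 342 and 485 (log2 -1.59 ± 0.15, adjusted p 1.7e-09). Numa1, Thbs1, Slc1a5, Phldb1, Vcl, Neat1 and Golgb1 were also among the 12 largest, at log2 values from -1.88 to -1.58. In the same unit and order as Plec, Neat1 stood at 0.657 and 0.781, 0.777 and 0.494, and 2.89 and 2.64. Thbs1 stood at 2.20 and 3.53, 6.06 and 6.22, and 11.3 and 15.6. The part of free RNA in the falls was not tested.

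Of 14 extracellular matrix genes 7 were called lower and 1 higher (median log2 -0.79). Col1a1, the main chain of collagen I, had 84.7 and 99.5 CPM against 234 and 262 (log2 -1.43 ± 0.20, adjusted p 1.5e-06), and Timp3, an inhibitor of matrix proteases, 1011 and 1447 against 2252 and 3342 (log2 -1.18 ± 0.14, adjusted p 8.2e-08). Sparc, a small matrix glycoprotein, was the 1 higher, at 3667 and 2604 against 1920 and 1996 CPM (log2 0.67 ± 0.14, adjusted p 0.00084), and was not called with library-size scaling. Of 17 actin and contractile genes 4 were higher and 7 lower, and 2 and 9 with library-size scaling. Flna, filamin A, fell to 222 and 344 from 662 and 797 CPM (log2 -1.40 ± 0.16, adjusted p 3.4e-08), whereas the tropomyosin Tpm2 rose (log2 1.41 ± 0.20, adjusted p 1.8e-06).

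Of 17 neural progenitor, mesenchymal and Ly6 genes, 11 were called higher and 2 lower (median log2 0.64), and with library-size scaling 7 and 4. Lgals1, galectin 1, had 10311 and 9313 CPM against 4311 and 4327 in deep cells (log2 1.18 ± 0.14, adjusted p 1.4e-07). Ly6a, the Sca-1 antigen, had 1064 and 1107 against 514 and 653 CPM (log2 0.91 ± 0.14, adjusted p 4.6e-06). Vim, the mesenchymal intermediate filament, had 19422 and 20111 against 14131 and 14727 CPM (log2 0.45 ± 0.15, adjusted p 0.036), a difference that shrank to 0.07 with library-size scaling. Nes, the progenitor filament nestin, went the other way, with 350 and 539 against 1132 and 1209 CPM (log2 -1.43 ± 0.15, adjusted p 1.2e-08). Sox2, at 68.8 and 24.9 against 69.6 and 70.5 CPM, did not pass (adjusted p 0.30).

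Immediate early genes, which switch on within minutes of a stimulus, were mixed, with 6 of 17 called higher and 7 lower (median log2 -0.31), and 3 and 10 with library-size scaling (median -0.71). Fos had 130 and 78.8 CPM against 33.4 and 15.3 in deep cells (log2 2.09 ± 0.26, adjusted p 2e-07), and Jund 170 and 212 against 344 and 324 (log2 -0.84 ± 0.17, adjusted p 0.00048). The call of Egr1 (log2 1.92 ± 0.24, adjusted p 1.6e-07) rested on library 1, with 397 against 80.1 CPM, since library 2 had 33.2 against 26.1. Junb likewise had 391.9 against 148 CPM in library 1 and 95.4 against 95.03 in library 2. Long RNAs kept in the nucleus had 1 of 4 called lower and none higher. Of 12 interferon and antigen presentation genes 4 were higher and none lower although the list's median was -0.19, and with library-size scaling 3 were higher and 4 lower. Bst2, tetherin, had 2322 and 995 CPM against 871 and 497 (log2 1.23 ± 0.14, adjusted p 3.7e-08). The interferon-induced Ifi27l2a, at 1361 and 245 against 339 and 121 CPM, was higher in both libraries (log2 1.65 ± 0.17, adjusted p 5.1e-09). Its ribosome-rich level in library 2 lay below the deep level of library 1.

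Hmox1, the haem-degrading enzyme, was among the largest rises, with 201 and 216 CPM against 62.6 and 42.8 (log2 1.97 ± 0.20, adjusted p 5.1e-09). Flt1, which encodes a receptor for vascular endothelial growth factor, had 278 and 66.3 CPM against 42.4 and 32.4 (log2 2.20 ± 0.25, adjusted p 3.4e-08), with the larger part in library 1. Of the remaining stress lists, heat shock proteins had 3 of 8 higher (none with library-size scaling, where 3 were lower), ATF4 targets 4 of 12 higher, endoplasmic reticulum chaperones 1 of 14 higher and 2 lower, and sterol genes 1 of 17 higher and 3 lower. With library-size scaling these became 3 higher and 2 lower for the ATF4 targets, 1 and 9 for the chaperones and 1 and 7 for the sterol genes, beside 4.32% of all genes higher and 21.8% lower on that scale. Atf5 (log2 1.31) and Psat1 (0.85), a serine synthesis enzyme, were among the ATF4 targets that rose. The list of genes typical of the GL261-GSCs cultures had 0 of 10 members with enough UMIs to test, and held 0.0453 and 0 UMIs per 10000 in the ribosome-rich small cells.

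**Figure D3:**
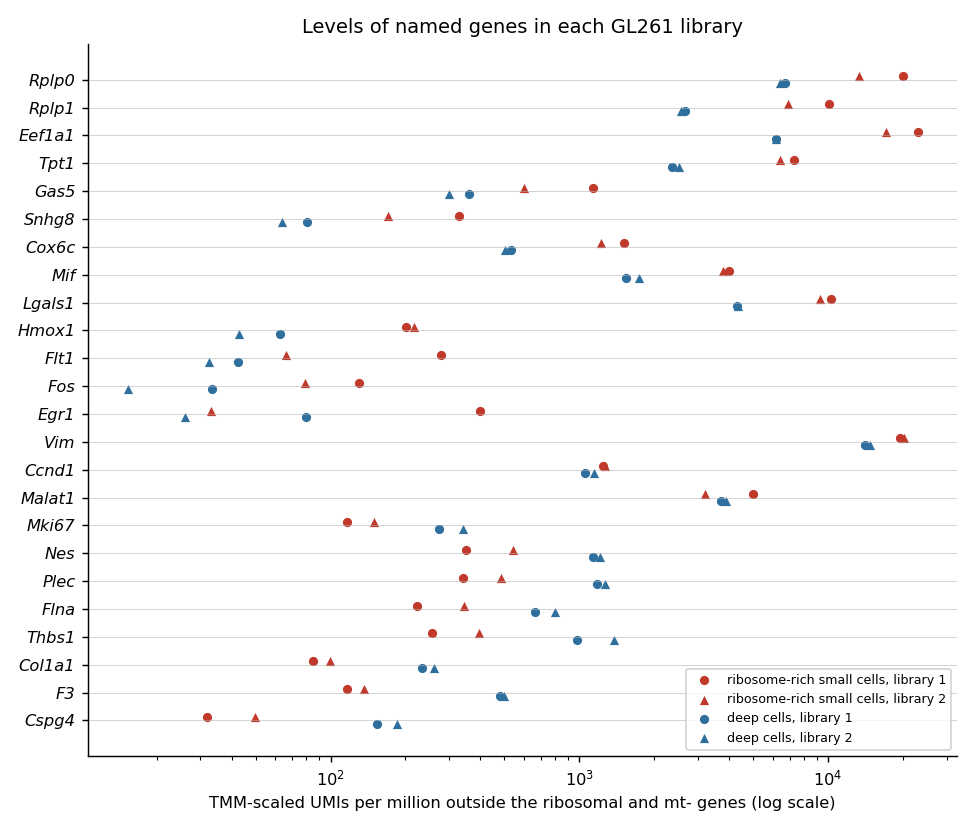
Levels of 24 genes (TMM-scaled CPM outside the ribosomal and mt- genes, log axis) in ribosome-rich small cells (red) and deep cells (blue), circles for library 1 and triangles for library 2. Rplp1 and Eef1a1 lie higher and Cspg4, F3 and Nes lower in the ribosome-rich small cells of both libraries, while for Egr1 the value of library 2, 33.2, lies below the deep value of library 1, 80.1.

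The direction of a gene went with its annotated exonic length. Exonic length here is the total of a gene's exons, merged over all its transcripts, in the GENCODE M21 annotation of GRCm38. It can exceed the length of any transcript in the cells. Of the protein-coding genes tested, 185 had under 1000 bases, and 42.7% of these were called higher and 2.16% lower (median log2 0.63). Among the 1106 genes over 10000 bases, 2.08% were higher and 13.6% lower (median -0.44), and the medians of the 5 classes between fell step by step, from 0.25 to -0.31. The same order of medians was seen in each library alone. Against the other small cells the medians ran from 0.98 under 1000 bases to -0.76 over 10000. Among the genes named, Ifi27l2a (463 bases), Rplp1 (499) and Lgals1 (903) were short and higher, and Mki67 (10061), Ahnak2 (14163) and Plec (18113) long and lower. Exceptions were Flt1 (13504) and Lars2 (11089), long and higher, and F3 (2527), lower. The part that length has in the changes of the gene groups was not tested.

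**Figure D4:**
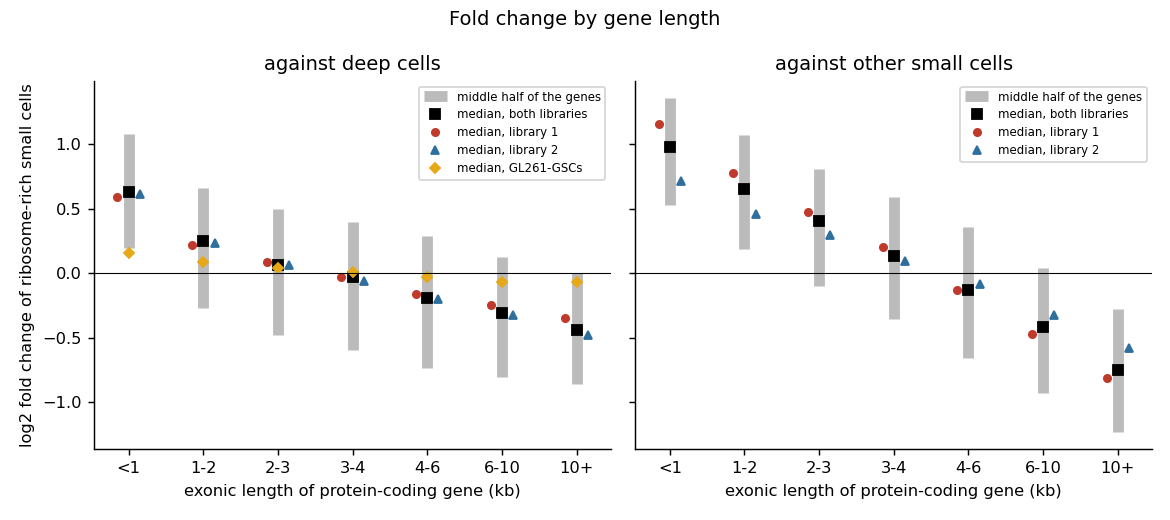
Log2 fold change of ribosome-rich small cells by exonic length of protein-coding genes (kilobases), against deep cells on the left and other small cells on the right. Grey bars span the 25th to 75th percentile, squares are medians of both libraries, circles and triangles those of libraries 1 and 2, and diamonds GL261-GSCs; the squares fall from 0.63 to -0.44 on the left and from 0.98 to -0.76 on the right.

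A higher share need not mean more transcripts per cell. Since the choice of cells gave deep cells more UMIs, the count that follows rests in part on that choice and is a description. Of the 1048 genes called higher, 17 had more UMIs per cell, unthinned, than deep cells in both libraries. Eef1a1, for example, had 69.7 UMIs per ribosome-rich small cell against 102 per deep cell in library 1, and 53.1 against 88.1 in library 2. Fewer UMIs per cell can come from less RNA in the cell or from less of it captured, which cannot be told apart here. In UMIs per cell, the highest of the 17 was Gm26870, a long intergenic non-coding RNA at chromosome 9:3000282-3038313, with 10.2 and 2.36 against 0.598 and 0.116. In ratio to deep cells it was not the highest, since Bcl11b had 0.121 and 0.0339 UMIs per cell against 0.00317 and 0.000493. Predicted genes lay outside the rule for naming, and Gm26870 was chosen after its values were seen. The counts do not show if its UMIs come from repeated sequence. Its level was 3175 and 742 CPM against 52.4 and 10.1, a log2 of 6.02 ± 0.17 (adjusted p 2.3e-25). The other small cells held it too, at 10.1 and 0.299 UMIs per 10000 UMIs outside the rule, and those with under 10% ribosomal UMIs at 18.9 and 0.904, against 27.1 and 6.65 in the ribosome-rich small cells. Another predicted gene, Gm42418, which overlaps the 45S ribosomal RNA and was also picked after its values were seen, rose by 1.65 ± 0.15 (adjusted p 1.3e-09). Lars2, the mitochondrial leucyl-tRNA synthetase, had 884 and 581 CPM against 193 and 173 (log2 1.99 ± 0.15, adjusted p 5.9e-12), and Mir6236, a precursor microRNA locus, 342 and 178 against 46.9 and 53.8 (log2 2.40 ± 0.21, adjusted p 3.4e-10). Free RNA held more of Gm42418, Lars2 and Mir6236 than the ribosome-rich small cells. In UMIs per 10000 outside the rule, Gm42418 stood at 430 and 349 in free RNA, 138 and 93.3 in the ribosome-rich small cells and 49.0 and 45.5 in deep cells. Lars2 stood at 8.27 and 7.52, 7.56 and 5.20, and 2.22 and 1.96 in the same order, and Mir6236 at 4.85 and 4.49, 2.92 and 1.60, and 0.540 and 0.610. The part of free RNA in their rises was not tested. Gm26870 stood at 0.882 and 0.1504 in free RNA.

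The ribosome-rich small cells were not of a single kind. Clustered on the genes outside the rule, they fell into 3 clusters, each present in both libraries. The clusters were drawn from the same values that describe them, so what follows is description without a test, and no cell type name is given. Levels are UMIs per 10000 UMIs outside the rule. Cluster 1, with 121 and 104 cells (39.5% and 58.8% of the cells of libraries 1 and 2), was led by S100a11, Slc25a5, Hmga1, Anxa1 and Actb. Its mt- share was low, with medians of 0.526% and 0.636%, and so were its long nuclear RNAs, which summed to 5.87 and 3.11 against 46.5 and 47.9 in deep cells and 17.7 and 13.4 in free RNA. Malat1 alone stood at 5.65 and 2.67 against 42.5 and 44.3 in deep cells. Actb, beta-actin, stood at 186 and 188 against 108 and 113, and endoplasmic reticulum chaperones, whose messages are translated on membranes, at 31.9 and 33.7 against 74.9 and 74.7.

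Cluster 2, with 145 and 35 cells (47.4% and 19.8%), was led by Gm26870, Gm26917, Egr1, Col9a2 and Junb. It had the highest ribosomal shares, with medians of 29.9% and 28.8%, the highest mt- shares, 2.22% and 1.92%, and detected 858 and 855 genes per 2000 UMIs. Its long nuclear RNAs summed to 76.9 and 79.3, and its endoplasmic reticulum chaperones to 69.7 and 89.4. Gm26870 stood at 59.9 and 35.1, against 0.602 and 0.115 in deep cells. In cluster 1 it stood at 0.549 and 0 (a count of 0 that allows up to 0.186), and in cluster 3 at 1.13 and 1.35. Flt1 stood at 4.87 and 2.87 against 0.488 and 0.367 in deep cells, and Fos at 2.48 and 3.49 against 0.384 and 0.173. Most UMIs of both genes in the ribosome-rich small cells lay in this cluster. Of Fos it held 49 and 17 thinned UMIs, against 0 and 2 in cluster 1 and none in cluster 3. A count of 0 allows up to 0.165 UMIs per 10000 in cluster 1 of library 1, below deep cells, and up to 0.482 and 0.506 in cluster 3, above them (3 counts, counting error only). Of Flt1 it held 96 and 14 UMIs, against 4 and 1 in cluster 1 (0.219 and 0.0622 per 10000) and 5 and 1 in cluster 3 (0.804 and 0.169). Egr1 stood at 7.30 in library 1 and 1.44 in library 2, and Actb at 43.5 and 54.3, below deep cells. Sparc stood at 48.8 and 59.5, above the 22.1 and 22.6 of deep cells. The other clusters lay below deep cells in Sparc, with 16.2 and 13.2 in cluster 1 and 20.6 and 21.1 in cluster 3.

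Cluster 3, with 40 and 38 cells (13.1% and 21.5%), was led by Timp3, Id3, Hmga2, Lsm2 and Plec and lay near the limit, with 62.5% and 60.5% of its cells under a ribosomal share of 20%. It detected 1119 and 1128.5 genes per 2000 UMIs, and its translation factors summed to 244 and 246 against 229 and 229 in deep cells. Its G2 and mitosis genes stood at 29.9 and 60.2, beside 45.1 and 52.8 in deep cells. Clusters 1 and 2 were lower in these genes in both libraries, at 25.8 and 28.3 and at 13.03 and 20.7. Along the ribosomal share itself, the G2 and mitosis genes went from 29.5 and 44.2 in cells with 18 to 22% to 12.9 and 14.95 in cells over 28%, and the proteasome genes from 102 and 110 to 60.9 and 61.7. Interferon and antigen presentation genes went from 24.1 and 10.7 to 50.6 and 38.0.

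**Figure D5:**
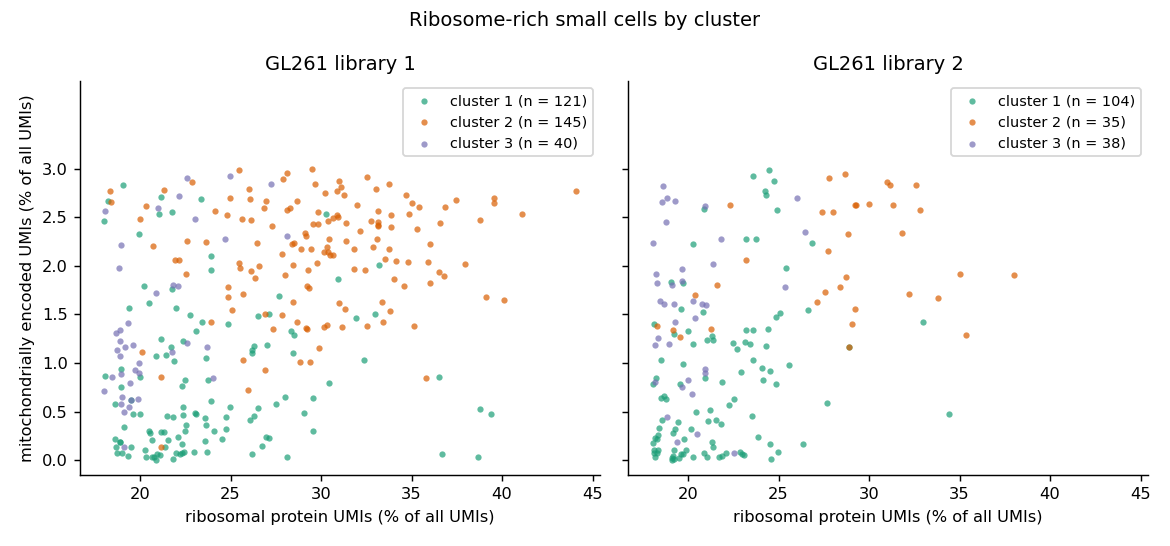
Mitochondrially encoded share of UMIs against ribosomal protein share (both percent) for each ribosome-rich small cell, 1 panel per GL261 library, coloured by cluster. Cluster 2 lies at the upper right (median mt- shares 2.22% and 1.92%), most of cluster 1 at the bottom (0.526% and 0.636%) and cluster 3 near the 18% limit.

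Against the other small cells, which shared the UMI window, 1996 of 7557 genes were called (26.4%), 1122 higher (14.8%) and 874 lower (11.6%), with a median log2 of -0.08 over all genes (-0.58 with library-size scaling, where 39.1% were called, 475 higher and 2478 lower, 6.29% and 32.8%). This comparison and the one above share the ribosome-rich small cells. The ribosomal genes outside the rule were again higher in 7 of 7 (median 1.87), the translation factors in 16 of 17 (median 1.35), the respiratory chain in 27 of 31 (median 1.26) and the proteasome in 16 of 30 (median 0.71). Of the G2 and mitosis genes 1 of 24 was higher and 5 lower. With library-size scaling the proteasome had 3 of 30 higher, the respiratory chain 20 of 31, the translation factors 12 of 17, and the G2 and mitosis genes none higher and 14 lower. Among the largest rises were Ifi27l2a (log2 2.48 ± 0.31, adjusted p 4.7e-12), Rplp1 (2.13 ± 0.49, adjusted p 0.00029), Crabp1, which binds retinoic acid (2.11 ± 0.29, adjusted p 2.1e-10), Flt1 (2.04 ± 0.30, adjusted p 7.4e-09) and the surface antigen Ly6c1 (1.93, adjusted p 8.6e-10).

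The largest falls were led by a pair of non-coding RNAs. Neat1, the scaffold RNA of paraspeckles, had a log2 of -4.0 ± 0.39 (adjusted p 3.4e-21) and Lncpint of -3.89 ± 0.50 (adjusted p 4.7e-12). The protein-coding Ccdc9b (-3.22) and Srgap2 (-3.19) came next, followed by Kcnq1ot1, an imprinted antisense RNA (-2.63, adjusted p 4.7e-12), and by Ogt, Hjurp, Metap1d, Zup1, Pde10a, Nktr and Slc1a5, at -2.57 to -2.16. Small cells with under 10% ribosomal UMIs, 178 in library 1 and 71 in library 2, held 538 and 373 UMIs of the long nuclear RNAs per 10000, against 47.1 and 49.9 in small cells with 10 to 18%. With only small cells of 10 to 18% as the comparison, a choice made after seeing the data, 761 genes were called of 5846, 521 higher (8.91%) and 240 lower (4.11%), and the log2 of Neat1 was -1.27 (adjusted p 7.4e-05). There the proteasome had 3 of 30 called higher, near the share of all genes, and the respiratory chain 21 of 31. Malat1, lower by 1.74 against all other small cells (log2 -1.74, adjusted p 0.014), stood at -0.06 (adjusted p 0.80) in that comparison and at 0.08 (adjusted p 0.78) against deep cells. In that comparison rises were also called for Rplp1 (1.53, adjusted p 1.9e-28), Eef1a1 (1.43, adjusted p 5.8e-28), Ifi27l2a (1.83, adjusted p 2e-18) and Flt1 (2.77, adjusted p 3.3e-13), and Hmox1 did not pass (0.24, adjusted p 0.54).

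The same limits were then applied to the GL261-GSCs libraries, which had no part in the choice of the GL261 cells. They took 34, 67, 385 and 416 cells (libraries 1 to 4), 11.04, 9.68, 41.8 and 36.3% of the small cells there. In no GL261-GSCs library did the limit set the small cells apart, since 10.1, 10.7, 46.7 and 55.1% of the deep cells also reached 18%. Over the 3 libraries with at least 50 such cells, 949 of 10261 genes were called against deep cells (9.25%), 438 higher (4.27%) and 511 lower (4.98%). The ribosomal genes outside the rule had 6 of 7 called higher (median log2 0.31), the translation factors 8 of 17 (median 0.25) and the respiratory chain 5 of 31, with 1 lower (median 0.08). The G2 and mitosis genes had 24 of 24 called lower (median -1.05) and the replication genes 16 of 23 (median -0.76). Without the library as a block 1 gene was called in this comparison, and without library 3 it was 197.

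The difference between the cultures was tested as an interaction over 10054 genes, of which 1388 were called (13.8%), 921 with a higher log2 in GL261 (9.16%) and 467 with a lower one (4.64%). The log2 of Rplp1 was larger in GL261 by 1.24 (adjusted p 5.3e-11) and that of Eef1a1 by 1.29 (adjusted p 1.4e-10). F3 was not lower in the GL261-GSCs cells (log2 0.20, adjusted p 0.33) and its interaction was -2.16 (adjusted p 3.4e-16). For Mki67 the difference was not called (0.18, adjusted p 0.70), with log2 values of -1.21 in GL261 and -1.40 in GL261-GSCs, and likewise for Top2a (0.12, adjusted p 0.75). Gm26870, at 6.02 in GL261, had a log2 of 0.08 in GL261-GSCs (adjusted p 0.94).

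Markers of other cell types were summed in the same way. All 5 erythroid markers had no UMI in the ribosome-rich small cells, which allows a level of up to 0.0269 and 0.0469 UMIs per 10000 (3 counts of the total, counting error only), and of the myeloid markers C1qa, C1qb, C1qc, Tyrobp and Aif1 had none, with 0.204 and 0.149 UMIs per 10000 over the 9 myeloid markers against 0.251 and 0.188 in deep cells. The 5 endothelial markers summed to 0.158 and 0 UMIs per 10000 against 0.0141 and 0.00728, with Cdh5, Cldn5 and Tie1 at 0; their part in the level of Flt1, which endothelial cells also express, was not tested. Aqp4 and Slc1a3 of the astrocyte markers and 4 of 5 neuronal and 4 of 5 lymphocyte markers had none either. The oligodendrocyte markers summed to 3.80 and 3.68 against 1.84 and 2.91, with Mag and Mobp at 0, and lay above deep cells in both libraries; their part in the results was not tested. Fibroblast markers, which include Col1a1, summed to 0.770 and 0.929 against 2.82 and 3.08, with Dcn at 0. Vim and Lgals1, which the line expresses strongly, were at the levels given above.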

How the data were processed

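UMI counts were used as deposited: raw counts per gene and barcode for every barcode without a filter on cells, made by the authors with Cell Ranger 4 per the file headers and the mm10 genome per the submitters' processing notes; for the annotation release, the sources used here give nothing. The members and gene lists were chosen with earlier results of these data known. Barcodes were filtered by the limits in the text, no doublet caller was run, and each cell was thinned to 2000 UMIs. Cells of a class were summed per library and tested with edgeR 4.0.16 (quasi-likelihood, TMM scaling, its default filter on low counts, Benjamini-Hochberg, library as block because the sums compared come from the same library), leaving out Rps, Rpl and mt- genes. Only the residual spread shared across genes makes a test with 1 residual degree of freedom possible. limma-voom (limma 3.58.1) and DESeq2 1.42.0 were alternatives. All were run on sums simulated with independent genes and a common dispersion. Nothing about the results is read from that run. Genes named are the 12 largest called rises and falls per contrast (average log2 CPM at least 6, same sign in both libraries, no predicted or clone symbols), all genes of 5 lists, up to 4 genes with the smallest p of each other list, and single genes such as Mki67. Clusters came from scanpy 1.11.5 (1000 variable genes, 10 components, resolution 0.3). Lengths came from GENCODE M21, in which 54409 of 54446 gene identifiers were found, and start regions from RefSeq (GRCm38.p6), matched by symbol. A few genes that these rules name are not reported here.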

Additional observations from a re-analysis of the deposited data

Results flagged for a closer look

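The contrast between ribosome-rich small cells and deep cells differed between GL261 and GL261-GSCs for 1388 genes by the interaction test of edgeR. These were 13.8% of the genes tested for it. Of the 135 named genes that could be tested 98 were called, but most of them were named for a large change or a small p in GL261, which favours such a call, so nothing is read from that count. For those of the 24 largest changes in GL261 that are reported here, given as the log2 in GL261 minus that in GL261-GSCs, it was 1.91 for Mir6236, 2.28 for Flt1, 1.43 for Lars2, 1.82 for Hmox1, 2.65 for Egr1, 1.21 for Snhg8, 1.77 for the histone gene Hist1h4d, 1.41 for the actin-binding Cotl1, 1.24 for Rplp1, 1.29 for Eef1a1, 1.39 for Ifi27l2a and 1.17 for the actin-severing gelsolin, Gsn. Among the genes lower in GL261 it was -2.80 for Ahnak2, -2.02 for Cspg4, -2.16 for F3, -1.62 for the spindle protein Numa1, -2.44 for the matrix protein Thbs1, -1.73 for the glutamine transporter Slc1a5, -1.68 for Phldb1, -1.68 for vinculin, Vcl, -1.23 for Plec, -1.67 for Neat1 and -1.81 for the Golgi protein Golgb1. With library-size scaling 1697 genes were called, 398 higher and 1299 lower, against 921 and 467. Ribosomal shares of deep cells, and the ribosomal shares and UMIs of the ribosome-rich small cells, differ between the cultures. These differences move with this contrast, and their part in it was not tested.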

How the results depend on the processing

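Against deep cells, 1679 genes became 688 with DESeq2 (585 higher, 103 lower), 2872 with library-size scaling, 2997 without thinning and 1010 when thinned to 1000 UMIs; the other settings gave 1371 to 2104. Leaving out a library gave 749 (without library 1) to 1405. Against the other small cells, 1996 became 488 with DESeq2 (452 higher, 36 lower), 1091 at 1000 UMIs, 762 with 3500 to 8000 UMIs, 761 with at least 10% ribosomal UMIs, and 798 (without library 1) to 2233 by library. In GL261-GSCs, 949 became 413 with limma-voom and 197 (without library 3) to 924 by library, with 387 without library 4. The interaction's 1388 became 628 (without GL261 library 1) to 1346, with 737 and 856 without GL261-GSCs libraries 3 and 4. Leaving out a GL261 library leaves a lone one, whose spread is taken from the GL261-GSCs libraries. The library is the block, since the sums compared come from it: without the block, 1705 genes were called against deep cells, 1323 against the other small cells and 1 in GL261-GSCs. Against deep cells, DESeq2 called 584 of the 1048 higher genes higher and 103 of the 631 lower genes lower. Another random thinning of the same cells called 896 of the 1048 higher and 422 of the 631 lower genes. Against the other small cells, that thinning called 938 of the 1122 higher genes higher and 560 of the 874 lower genes lower. Similar totals thus hide changes in single calls, more so among the lower genes. Of 137 genes named against deep cells, 113 were called, and 18 of these were lost and 12 others gained with library-size scaling, and 14 were lost with DESeq2, which gave 4 of the 137 no adjusted p. Against the other small cells 112 of 136 were called; library-size scaling lost 24 and gained 7, and DESeq2 lost 21, gained 2 and gave 28 none. Among the named genes called in the main test, where a setting gave a value, the only reversal of sign was Egr1 against the other small cells. Its log2 was -1.96 without library 1 and 2.80 without library 2 (1.06 with both). Of the list medians of both comparisons, 13 moved and 33 did not without library 1, and 14 and 32 without library 2. A median counts as moved if it shifts by at least the standard deviation between the 2 libraries. The value without a library is the median of the other one, and that standard deviation comes from the same 2 medians. These counts therefore cannot show how far a median depends on a library, and nothing is read from them. With limits of 16% and 20%, ribosome-rich cells were 55.2 and 38.1% of the small cells of library 1 and 45.4 and 19.3% of library 2. Sums of 177 to 306 thinned cells limit the genes under a few CPM.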

Other observations

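Deep cells that reached a ribosomal share of 18% (323 in library 1 and 187 in library 2) gave other values than the ribosome-rich small cells. All levels here are UMIs per 10000 UMIs outside the rule, in libraries 1 and 2, and no difference was tested. The translation factors summed to 298 and 274 in these deep cells, against 479 and 400 in the ribosome-rich small cells and 229 and 229 in all deep cells. The G2 and mitosis genes stood at 41.4 and 48.6, against 20.7 and 33.9 in the ribosome-rich small cells. Endoplasmic reticulum chaperones stood at 71.0 and 70.6, against 55.0 and 54.3. Ribosomal shares were not matched between these groups, since the 95th percentile of all deep cells was 18.8% and 17.9%. In ribosome-rich small cells with a share of 18 to 22%, the translation factors stood at 345 and 324. There the G2 and mitosis genes stood at 29.5 and 44.2 and the chaperones at 46.7 and 48.3.

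Within the ribosome-rich small cells, the cells with 2500 to 4000 UMIs held 43.9 and 41.6 UMIs of the endoplasmic reticulum chaperones, and those with 4000 to 6000 UMIs 56.1 and 66.7. Long nuclear RNAs stood at 32.0 and 16.5 in the first window and at 51.4 and 42.5 in the second. Cells with 6000 to 8000 UMIs held 64.6 and 55.9 UMIs of the chaperones and 46.4 and 33.7 of the long nuclear RNAs. The translation factors stood at 486 and 410, 496 and 432, and 451 and 345 in the 3 windows in order.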
